A study of Homo sapiens with 9 samples.

Results

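Clustered histone genes are the genes for histones H1, H2A, H2B, H3 and H4 that lie together in the HIST1 cluster on chromosome 6, the HIST2 and HIST3 clusters on chromosome 1, and at the single HIST4 locus on chromosome 12. They were chosen by name: a gene symbol beginning with HIST, a cluster number from 1 to 4 and H, but not ending in P and a number. Of 91 such IDs 1 was excluded as a pseudogene name, which left 90 of the 58278 rows of each library's gene table. The 90 IDs carry 89 symbols, because HIST1H3D has 2 IDs. There were 8 H1, 23 H2A, 26 H2B, 17 H3 and 16 H4 IDs, 69 of them with HIST1 names, 16 with HIST2, 4 with HIST3 and 1 with HIST4. The HIST1 names HIST1H2APS6 and HIST1H2BPS3 belong to processed pseudogenes on chromosome 13, outside the cluster, and had no count. In GENCODE release 29, 72 are protein-coding and 17 are typed as pseudogenes, and 1, HIST2H2BC, is not listed there. Of the 90, 15 had no count in any library, 6 of these protein-coding, and 34 passed the filter on low counts and were tested, 32 of these protein-coding.

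The cells were TC32, an established Ewing sarcoma line, in 3 groups of 3 libraries. Vehicle cells received only PBS and DMSO. Wnt3a cells received recombinant Wnt3a, a ligand of the Wnt/β-catenin pathway, for 28 h. Inhibitor cells received Wnt3a for 28 h, first alone for 4 h and then for 24 h together with SB-505124, an inhibitor of the kinase activity of TGF-β type I receptors. Since no group had the inhibitor without Wnt3a, the comparison of inhibitor with Wnt3a cells shows the inhibitor on a Wnt3a background only, and that with vehicle cells shows the combined treatment.

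Most clustered histone genes are expressed when DNA is replicated, and supply the histones that package new DNA. Their mRNAs are unusual in having no poly(A) tail: the transcript is cut just after a short hairpin, the histone stem-loop, which is bound by SLBP, the stem-loop binding protein. Some of these genes also make polyadenylated mRNAs, by reading past the stem-loop to a downstream poly(A) site or by splicing the stem-loop out, and such forms are known from differentiated and non-dividing cells. The libraries here were made from polyadenylated RNA, so the values count the histone transcripts that such a selection carried along. They are not a measure of the main, tailless histone mRNA, and carry-over of tailless RNA cannot be told apart from tailed forms in gene-level counts.

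The stem-loops of 7 members are printed because each marks where the tailless mRNA would end: 5 abundant members, HIST2H3C as an H3 gene that fell against vehicle in inhibitor cells, and HIST1H4H for a further form. The copies HIST2H4B, HIST2H2AA3 and HIST2H2AA4 have sites too. Each site is given 5′ to 3′ as in the GENCODE 29 transcript, with the stem arms and loop in capitals (a pair of perfectly complementary arms of 6 bases that begin with GG, around a loop of 4 bases that begins with TT), on hg38.
HIST1H2AC, chr6:26124664-26124690, plus strand: ccaaaGGCTCTTTTCAGAGCCccccta
HIST2H4A, chr1:149833027-149833053, plus strand: ccaaaGGCCCTTTTTAGGGCCgaccac
HIST1H2BD, chr6:26158582-26158608, plus strand: ccaaaGGCTCTTTTAAGAGCCacgcat
HIST3H2A, chr1:228457363-228457389, minus strand: ataaaGGCTCTTTTCAGAGCCacctac
HIST2H2BE, chr1:149886182-149886208, minus strand: ccaaaGGCTCTTTTCAGAGCCacccac
HIST2H3C, chr1:149840686-149840712, minus strand: caaaaGGCTCTTTTCAGAGCCacccac
HIST1H4H, chr6:26285125-26285151, minus strand: ccaaaGGCCCTTTTCAGGGCCgcccac
The arms of the H4 genes differ from those of the H2A, H2B and H3 genes shown. Such a site was found after the stop codon in 31 of the 72 protein-coding members (0 of 6 H1, 6 of 17 H2A, 11 of 18 H2B, 6 of 16 H3 and 8 of 15 H4). For 35 of the other 41, no transcript model holds any base after the stop codon, so the site could not be looked for. The arms and loop took 4 forms. The one shown for HIST1H2AC was in 18 genes, and all 8 H4 genes carried one of the 2 forms shown for HIST2H4A and HIST1H4H.

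The transcript models differ in how much of a tailed transcript they can count. Of the 72 protein-coding members, 30 have a transcript with more than 100 bases after the stop codon, called an extended model here. In the model of HIST2H2BE 1729 bases follow the stem-loop, in HIST1H2AC 1128 and in HIST3H2A 390. An extended model need not run far past the stem-loop. In HIST2H2AA3 and HIST2H2AA4 only 35 of the 118 bases after the stop codon follow it. Those 2 copies held 7.43%, 7.15% and 11.3% of the members' summed CPM in vehicle, Wnt3a and inhibitor cells. For HIST1H1C and HIST1H2BK the models are 642 and 381 bases long and end at the stop codon, so reads of any longer tailed form that lie past the stop codon would not be counted for them. The 30 members with extended models held 79.1% ± 2.10 of all counts of the 90 in vehicle cells, 78.7% ± 0.520 in Wnt3a cells and 78.7% ± 0.262 in inhibitor cells (SD, n = 3).

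The genes were a small part of each library. Total counts per library ran from 28844348 to 42976799, and the 90 members together held 2239.6 to 3666.8 of them, 0.00686% to 0.00937%. All 10 genes listed as Ewing sarcoma markers passed the filter, with a summed level of 3707 to 5285 CPM (counts per 1e6 counts of a library, scaled with the TMM factors of edgeR) in vehicle and Wnt3a libraries and 2919 to 3625 in inhibitor libraries. Of these, 4 fell from Wnt3a to inhibitor cells, 5 fell against vehicle and 0 rose. Of the marker lists for other cell types, 4 of 10 endothelial genes passed, at a sum of 2.49 to 5.12 CPM, and 4 of 10 leukocyte genes. The leukocyte sum was 4.91 to 8.88 CPM in vehicle and Wnt3a libraries and 11.5 to 15.8 in inhibitor libraries, and 2 of these genes rose and 1 fell from Wnt3a to inhibitor cells. All 10 fibroblast and matrix genes passed, at 459 to 1132 CPM, and 1 rose and 5 fell from Wnt3a to inhibitor cells. Over all genes tested, 24.5% rose and 25.9% fell from Wnt3a to inhibitor cells, and 25% and 24.8% against vehicle. The part of the marker genes in the histone values was not tested. AXIN2, a target of β-catenin, stood at 3.29 ± 0.326 CPM in vehicle, 20.1 ± 2.82 in Wnt3a and 31.1 ± 4.10 in inhibitor cells (SD, n = 3). PMEPA1, a target of TGF-β signalling, stood at 47.2 ± 2.52, 48.3 ± 6.66 and 13.98 ± 0.545 CPM, a log2 fold change of -1.79 from Wnt3a to inhibitor cells (adjusted p = 4.75e-06, edgeR). SMAD7, another target of TGF-β signalling, stood at 13.4 ± 0.821, 18.0 ± 0.916 and 14.9 ± 2.96 CPM. It did not pass the main test in any comparison (adjusted p = 0.157 for inhibitor against Wnt3a, edgeR). Against Wnt3a it passed as a fall with library totals alone as the scaling (log2 fold change -0.525, adjusted p = 0.014, edgeR). It also did with limma-trend on log2(TPM + 1), where TPM is transcripts per 1e6 (-0.803, adjusted p = 0.00304). Without inhibitor replicate 1 it passed against vehicle as a rise (log2 fold change 0.313, adjusted p = 0.0426, edgeR).

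One library of the inhibitor group stood apart from its replicates. Inhibitor replicate 1 differed from replicates 2 and 3 by a chi-square of 58.9 and 61.2 per degree of freedom across genes, while replicates 2 and 3 differed by 9.4 and pairs within vehicle and Wnt3a by 7.1 to 40.4. It also had the fewest counts, 28844348. Where leaving it out changes the call of a gene named here, the value without it is given beside the result. The labels do not say that replicates were separate cultures, so the spread between libraries may be technical.

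Pooled over all 90 members, the level did not separate the 3 groups. It was 86.2, 74.8 and 90.1 CPM in vehicle replicates 1 to 3, 64.1, 66.9 and 83.5 in Wnt3a cells, and 85.0, 79.4 and 81.2 in inhibitor cells. The means were 83.7 ± 7.94, 71.5 ± 10.5 and 81.9 ± 2.84 CPM, and the libraries of every pair of groups overlapped. The log2 ratio was -0.228 for Wnt3a against vehicle, 0.196 for inhibitor against Wnt3a and -0.032 for inhibitor against vehicle. The sign for inhibitor against Wnt3a depends on the scaling: with library totals alone it was -0.049, and from the summed TPM (transcripts per 1e6, a level per length) -0.034. Library totals alone move the median log2 fold change of all 17880 genes tested from -0.057 to -0.306 in this comparison and from -0.04 to -0.267 for inhibitor against vehicle, so differences of the inhibitor group near that size follow the choice of scaling. In bulk RNA, fewer cells with a transcript and less of it per cell cannot be told apart.

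**Figure D1:**
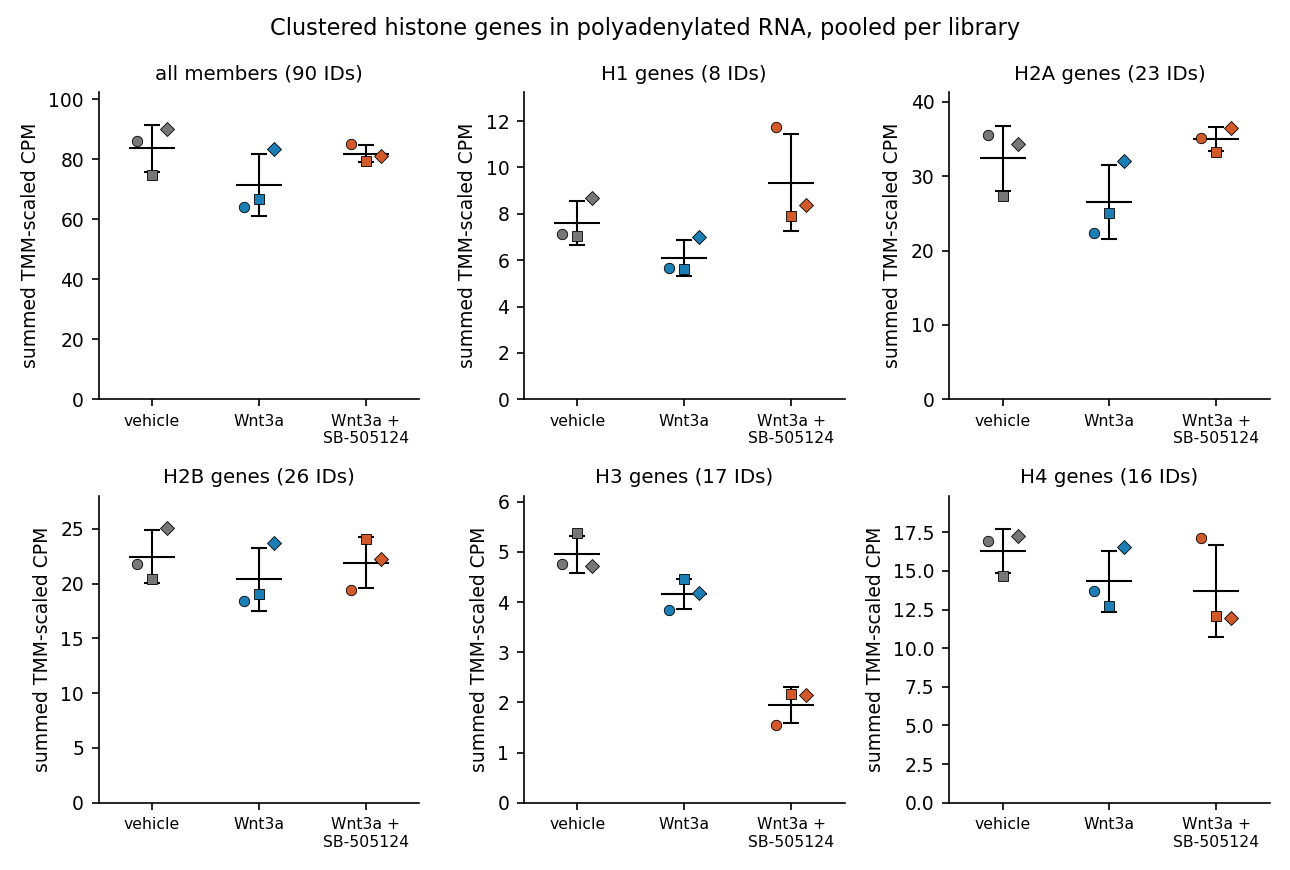
Summed TMM-scaled CPM of all 90 members and of each histone class in the 9 libraries, by group; circles, squares and diamonds are replicates 1, 2 and 3, and the bars are the mean ± SD of 3 libraries. The sum of all members overlaps between groups, while the 3 inhibitor libraries of the H3 genes, at 1.54 to 2.18, lie under the other 6, at 3.85 to 5.38.

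The make-up of that pool differed in inhibitor cells, with the H3 sum lower and the H1 sum higher in every library than in the Wnt3a libraries. Sums over members have no test here. Shares of the members' own counts do not depend on the scaling between libraries. The 17 H3 IDs, which encode the core histone H3, made up 5.99% ± 1.05 of the members' counts in vehicle, 5.89% ± 0.834 in Wnt3a and 2.40% ± 0.510 in inhibitor cells (SD, n = 3), with no overlap between the inhibitor libraries and either other group. In CPM the H3 genes summed to 4.77, 5.38 and 4.72 in vehicle, 3.85, 4.45 and 4.18 in Wnt3a, and 1.54, 2.18 and 2.15 in inhibitor libraries. All 3 inhibitor libraries were lower than any other library, and the log2 ratio was -1.09 against Wnt3a and -1.34 against vehicle. It stayed between -1.07 and -1.34 against Wnt3a under the RLE factors, library totals and TPM, and was -0.94 without inhibitor replicate 1. The 8 IDs of the linker histone H1 summed to 7.11, 7.03 and 8.70 CPM in vehicle, 5.68, 5.61 and 6.99 in Wnt3a and 11.7, 7.91 and 8.37 in inhibitor libraries. Every inhibitor library was higher than every Wnt3a library, by a log2 ratio of 0.616, which was 0.418 without replicate 1, 0.374 with library totals alone and 0.283 from TPM. The H1 sum was mostly HIST1H1C, and HIST1H1E, the other H1 gene tested, fell. The 23 H2A IDs were higher in all inhibitor than in all Wnt3a libraries as well, at a log2 ratio of 0.398 that fell to 0.154 with library totals alone, and overlapped with vehicle. The 26 H2B IDs (log2 ratio 0.104) and the 16 H4 IDs (-0.062) overlapped in CPM between inhibitor and Wnt3a cells. With library totals alone these ratios were -0.143 and -0.303, and from TPM -0.124 and -0.531. In TPM the H4 genes summed to 22.8 ± 1.03 in vehicle, 23.0 ± 2.87 in Wnt3a and 15.9 ± 0.695 in inhibitor cells (SD, n = 3). The H4 share of the members' counts was 20.2%, 15.2% and 14.7% in inhibitor replicates 1 to 3. It was 21.4%, 19.0% and 19.8% in the Wnt3a libraries.

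A few genes carried most of the level. The 14 most abundant members made up 83.3% ± 4.49 of the members' counts in vehicle, 81.8% ± 1.97 in Wnt3a and 90.2% ± 2.13 in inhibitor cells (SD, n = 3). The other 76 together summed to 11.8, 16.4 and 13.1 CPM in vehicle, 10.8, 13.7 and 14.4 in Wnt3a and 6.96, 9.71 and 7.33 in inhibitor libraries. The 3 inhibitor libraries were below all other libraries (log2 ratio -0.697 against Wnt3a and -0.783 against vehicle, and -0.606 and -0.692 without inhibitor replicate 1). HIST1H2AC alone made up 21.0% ± 2.86, 20.2% ± 0.376 and 16.1% ± 5.25 of the members' counts in the 3 groups.

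**Figure D2:**
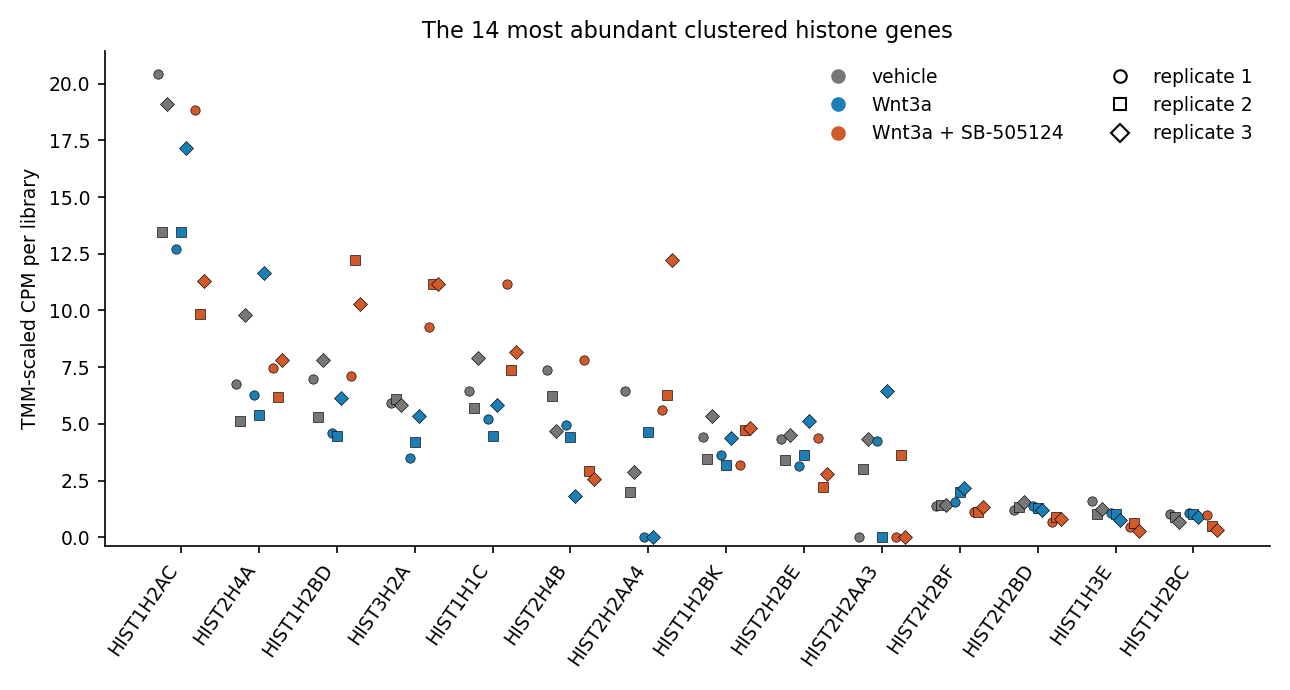
TMM-scaled CPM of the 14 most abundant members in each of the 9 libraries, ordered by their mean; colours are groups and symbols replicates. HIST3H2A has all 3 inhibitor libraries above the other 6, HIST1H2AC overlaps between all groups, and HIST2H2AA3 and HIST2H2AA4 drop to 0 in single libraries.

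With Wnt3a alone no member passed the test. Of the 34 tested, 0 rose and 0 fell against vehicle in edgeR's quasi-likelihood test at an adjusted p of 0.05, and 1, HIST3H2A, had an unadjusted p under 0.05. Of all 17880 genes tested, 0.397% rose and 0.0224% fell. DESeq2 and limma-voom called 0 members too, and leaving out Wnt3a replicate 2 gave 1 call. The median log2 fold change of the 34 was -0.111, beside 0.011 for all genes, with 24 of the 34 below 0. HIST2H2BF, an H2B gene, was at 1.36, 1.41 and 1.42 CPM in vehicle and 1.54, 1.998 and 2.18 in Wnt3a libraries. These did not overlap, but the log2 fold change of 0.454 ± 0.25 (SE) missed the threshold (adjusted p = 0.774, edgeR). The largest fitted change, -1.27 ± 1.28 for HIST2H2AA4, belongs to a copy that shares reads and had libraries at 0.

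With the inhibitor, a smaller share of the tested members than of all genes passed the test. Against Wnt3a cells 3 of the 34 rose (8.82%) and 5 fell (14.7%), beside 24.5% and 25.9% of all genes tested. With library totals alone it was 2 and 10, and over all genes 2828 rose and 6425 fell in place of 4379 and 4634. Against vehicle 1 rose (2.94%) and 6 fell (17.6%), beside 25% and 24.8% of all genes, and without inhibitor replicate 1 2 rose and 9 fell. The median log2 fold change of the 34 was -0.65 against Wnt3a and -0.497 against vehicle, where the medians of all genes were -0.057 and -0.04. All 5 tested H3 IDs lay below 0 in both comparisons, 2 of them called against Wnt3a and 3 against vehicle. Many of the tested members had few counts, down to a mean of 0.179 CPM (HIST2H2BC) over the 9 libraries, which limits what a test could find. The 2 comparisons share the inhibitor libraries.

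**Figure D3:**
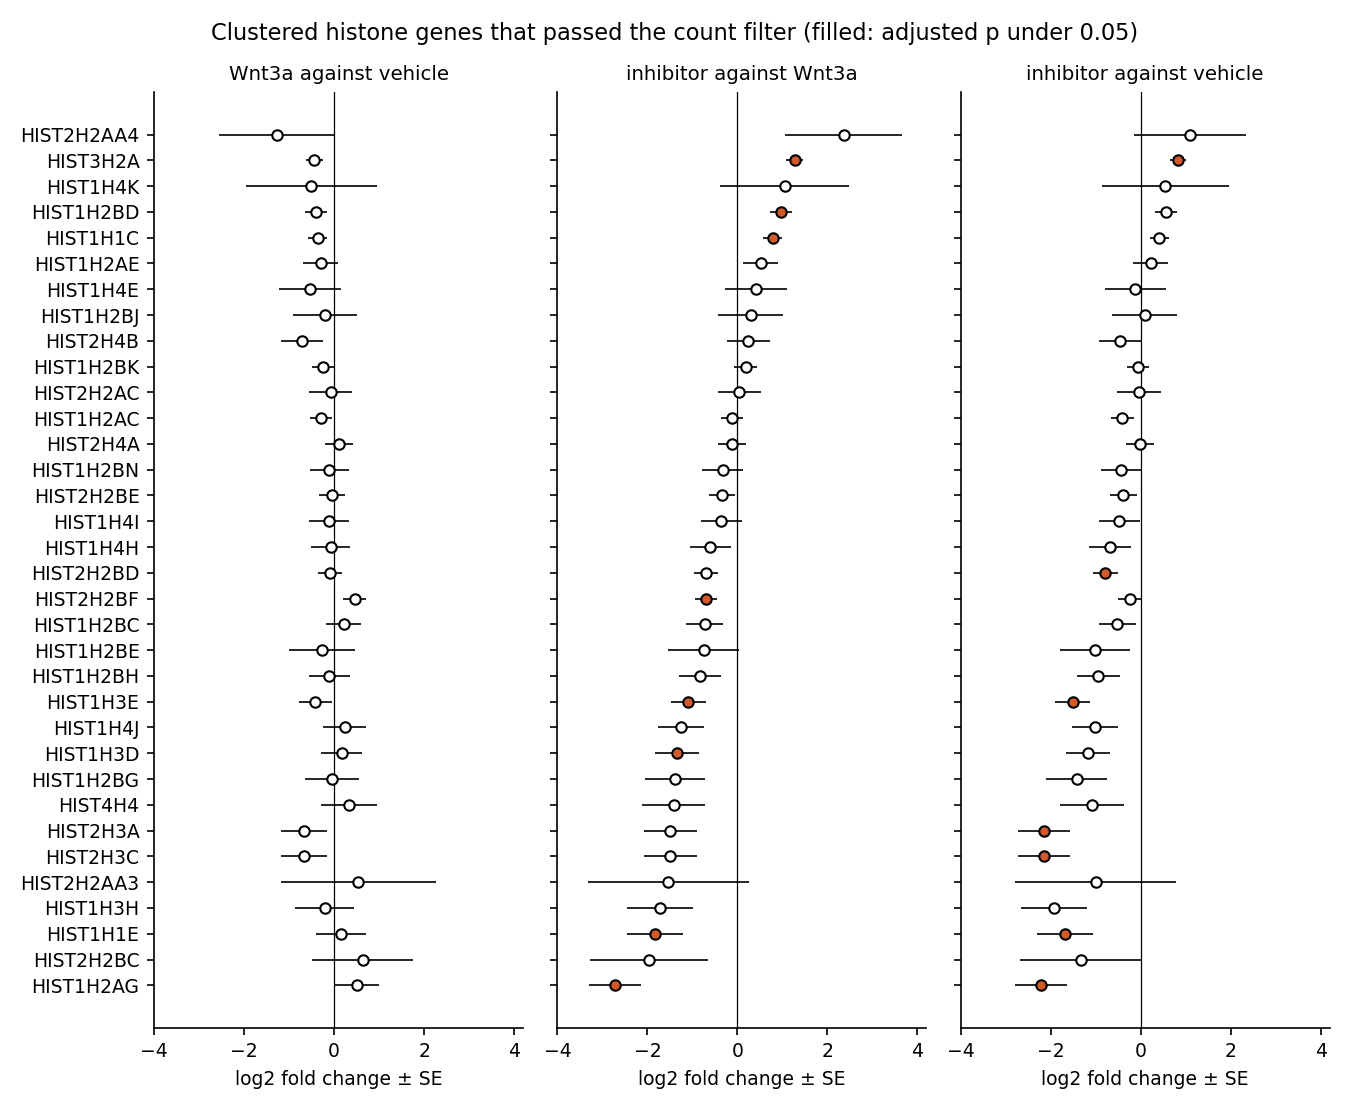
Log2 fold change ± SE of the 34 tested members in the 3 comparisons (edgeR), ordered by the change from Wnt3a to inhibitor cells; filled points passed an adjusted p of 0.05. No point is filled for Wnt3a against vehicle, and for inhibitor against Wnt3a 3 filled points lie above 0 and 5 below.

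HIST3H2A, an H2A gene of the HIST3 cluster (chr1:228456979-228457873, minus strand, a single exon), rose most firmly. It was at 5.91, 6.10 and 5.82 CPM in vehicle, 3.49, 4.21 and 5.36 in Wnt3a and 9.27, 11.2 and 11.2 in inhibitor libraries. The 3 groups did not overlap, with Wnt3a lowest and inhibitor highest. The log2 fold change was 1.27 ± 0.188 (SE) against Wnt3a, with an adjusted p of 0.000367, and 0.83 ± 0.186 against vehicle, with an adjusted p of 0.00432 (edgeR). All 17 alternatives run kept it past the threshold in both comparisons. Its share of the members' counts went from 6.05% ± 0.538 in Wnt3a to 12.9% ± 1.73 in inhibitor cells (SD, n = 3). From Wnt3a alone the change of -0.44 ± 0.187 did not pass the test (adjusted p = 0.616, edgeR).

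HIST1H2BD, an H2B gene (chr6:26158146-26171349, plus strand), was at 6.998, 5.32 and 7.81 CPM in vehicle, 4.601, 4.45 and 6.16 in Wnt3a and 7.13, 12.2 and 10.3 in inhibitor libraries. Inhibitor libraries lay above the Wnt3a libraries, and replicate 1 was within the range of vehicle. The log2 fold change against Wnt3a was 0.96 ± 0.242 (SE), with an adjusted p of 0.00779 (edgeR), and missed the threshold in 1 of 17 alternatives, limma-trend on log2(TPM + 1), at 0.586 (adjusted p = 0.0589). Against vehicle it was 0.56 ± 0.240 and missed the threshold (adjusted p = 0.0762), and without inhibitor replicate 1 it was 0.75 (adjusted p = 0.0173). The gene overlaps LARP1P1 on its own strand and AL353759.1 on the other, so its reads could be shared with them.

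HIST1H2BD has 2 transcript forms, which differ in whether they carry the stem-loop. A tailed transcript that runs unspliced past the stem-loop would be counted with the unspliced form. The shares of the forms are therefore no measure of tailless against tailed mRNA. The unspliced form of 496 bases carries the stem-loop printed above with 39 bases after it, and the spliced form of 789 bases joins the coding exon to a distant exon and lacks it. The deposited mean transcript length of the gene, taken with these lengths, puts the spliced form at 90.4%, 73.8% and 77.4% of its transcripts in vehicle, 94.0%, 79.3% and 85.6% in Wnt3a and 91.3%, 72.5% and 77.7% in inhibitor libraries. The groups overlapped, and the means were 80.5% ± 8.73, 86.3% ± 7.37 and 80.5% ± 9.71 (SD, n = 3). The spliced form was at 8.18 to 11.2 TPM in Wnt3a and 10.7 to 15.8 TPM in inhibitor libraries, and the unspliced at 0.574 to 2.13 and 1.02 to 6.0 TPM. The spliced form was the larger in all 9 libraries. These shares rest on RSEM's estimates for the gene, and assume that the authors' annotation held the same forms.

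**Figure D4:**
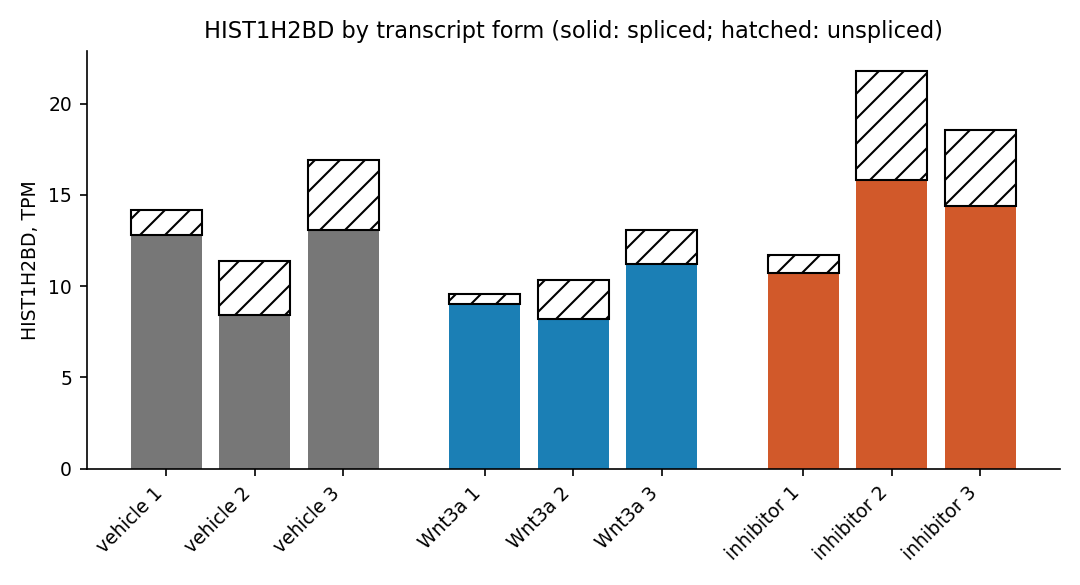
HIST1H2BD in each library, in TPM, parted into the spliced form without the stem-loop (solid, coloured by group) and the unspliced form with it (hatched), stacked to the gene's total. The solid part is the larger in every library, between 72.5% and 94.0%.

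HIST1H1C (chr6:26055787-26056428, minus strand), which encodes the linker histone H1.2, was at 6.46, 5.69 and 7.91 CPM in vehicle, 5.22, 4.47 and 5.85 in Wnt3a and 11.2, 7.39 and 8.18 in inhibitor libraries. The inhibitor libraries lay above the Wnt3a libraries and overlapped with vehicle. It rose by 0.78 ± 0.211 (SE) on the log2 scale against Wnt3a (adjusted p = 0.0113, edgeR), and without inhibitor replicate 1 by 0.59 (adjusted p = 0.0297). With library totals alone the change was 0.54 and missed the threshold (adjusted p = 0.0541), as it did with limma-trend on log2(TPM + 1), at 0.392 (adjusted p = 0.0925). Together, HIST1H2BD, HIST3H2A and HIST1H1C went from 20.4% ± 0.667 of the members' counts in Wnt3a to 35.9% ± 3.21 in inhibitor cells, and were at 23.1% ± 0.732 in vehicle (SD, n = 3). These 3 were put together because they passed the test, so the sum is a description.

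HIST1H2AG, an H2A gene (chr6:27133042-27135291, plus strand), fell most. It was at 1.07, 0.872 and 0.282 CPM in vehicle, 0.811, 0.935 and 1.41 in Wnt3a and 0.228, 0.152 and 0.0959 in inhibitor libraries. Every inhibitor library was below all others, but on few counts. There were 38, 36 and 11 counts in vehicle, 32, 41.9 and 61.9 in Wnt3a and 6, 5 and 3 in inhibitor libraries. It fell by 2.73 ± 0.581 (SE) on the log2 scale against Wnt3a (adjusted p = 0.00318) and by 2.22 ± 0.584 against vehicle (adjusted p = 0.00992, edgeR), and passed under all 17 alternatives in both comparisons.

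The H3 genes that passed were HIST1H3E, the near-identical HIST2H3A and HIST2H3C, and one of the HIST1H3D IDs. HIST1H3E was at 1.60, 1.03 and 1.23 CPM in vehicle, 1.09, 1.03 and 0.774 in Wnt3a and 0.455, 0.639 and 0.256 in inhibitor libraries, with all inhibitor libraries lowest. It fell by 1.51 ± 0.392 (SE) on the log2 scale against vehicle (adjusted p = 0.00918, edgeR). The fall against Wnt3a, 1.09 ± 0.392, passed (adjusted p = 0.0402) but missed the threshold in 8 of 17 alternatives, among them without inhibitor replicate 1 (1.09 lower, adjusted p = 0.0669). HIST2H3A and HIST2H3C had the same count in every library, as RSEM splits reads that fit both equally, and overlap the H4 genes HIST2H4B and HIST2H4A on the other strand. Their sum was 1.40, 1.56 and 1.16 CPM in vehicle, 0.594, 0.853 and 1.13 in Wnt3a and 0.0858, 0.251 and 0.597 in inhibitor libraries. Each fell by 2.16 ± 0.579 (SE) on the log2 scale against vehicle (adjusted p = 0.0109, edgeR). They count as 2 calls but share their reads. The second HIST1H3D ID, ENSG00000282988.1, is a longer model, named AL031777.3 in GENCODE 29, that overlaps HIST1H2AD and the first HIST1H3D. It changed by -1.34 ± 0.490 against Wnt3a (adjusted p = 0.0429, edgeR) and missed the threshold in 12 of 17 alternatives.

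The remaining calls, HIST1H1E, HIST2H2BF and HIST2H2BD, were all near the threshold. HIST1H1E, the gene of linker histone H1.4, was at 0.365, 0.582 and 0.537 CPM in vehicle, 0.228, 0.670 and 0.751 in Wnt3a and 0.0759, 0.274 and 0.0959 in inhibitor libraries. It moved against HIST1H1C of the same class, by -1.84 ± 0.622 (SE) against Wnt3a (adjusted p = 0.0311) and -1.69 ± 0.626 against vehicle (adjusted p = 0.0458, edgeR). It missed the threshold in 4 and 9 alternatives, and without inhibitor replicate 1 was at -1.55 (adjusted p = 0.0842) and -1.40 (adjusted p = 0.119). HIST2H2BF, at 1.11, 1.12 and 1.33 CPM in inhibitor libraries, changed by -0.70 ± 0.254 against Wnt3a (adjusted p = 0.0424) and lost the call in 11 of 17 alternatives, among them without inhibitor replicate 1 (-0.646, adjusted p = 0.0727). HIST2H2BD, an H2B locus typed as a transcribed pseudogene, was at 1.21, 1.31 and 1.56 CPM in vehicle and 0.668, 0.882 and 0.811 in inhibitor libraries. It changed by -0.78 ± 0.274 against vehicle (adjusted p = 0.0368, edgeR) and lost the call in 11 of 17, among them without inhibitor replicate 1 (-0.686, adjusted p = 0.0745). Against Wnt3a HIST2H2BD missed the threshold at -0.697 (adjusted p = 0.0562, edgeR). It passed there with library totals alone (-0.95, adjusted p = 0.0157, edgeR) and with limma-trend on log2(TPM + 1) (-0.801, adjusted p = 0.00225).

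The other abundant members did not pass the main edgeR test over all 9 libraries. HIST1H2AC, an H2A gene and the most abundant member, was at 20.4, 13.5 and 19.1 CPM in vehicle, 12.7, 13.5 and 17.2 in Wnt3a and 18.8, 9.85 and 11.3 in inhibitor libraries. Inhibitor replicate 1 was far above its replicates. Against vehicle the log2 fold change was -0.41 ± 0.253 (adjusted p = 0.204), and without that library -0.735 (adjusted p = 0.0156, edgeR). With limma-trend on log2(TPM + 1) over all 9 libraries it was -0.648 and passed (adjusted p = 0.0497). HIST1H2BK, an H2B gene with the highest level per length among the 14 in vehicle and Wnt3a cells (19.2 and 17.0 TPM), changed by 0.181 ± 0.248 against Wnt3a (adjusted p = 0.566). HIST2H2BE, another H2B gene, changed by -0.342 ± 0.295 against Wnt3a (adjusted p = 0.356, edgeR), and by -0.658 without that library (adjusted p = 0.0671). HIST1H2BC, an H2B gene too, changed by -0.728 ± 0.407 against Wnt3a (adjusted p = 0.16, edgeR). Without that library it passed both against Wnt3a (-1.24, adjusted p = 0.0184) and against vehicle (-1.03, adjusted p = 0.0406), and with limma-trend on log2(TPM + 1) it passed against Wnt3a (-0.763, adjusted p = 0.0131).

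The duplicated HIST2 genes have to be read as pairs, because their copies share reads. HIST2H2AA3 was at 0 in vehicle replicate 1, Wnt3a replicate 2 and inhibitor replicates 1 and 3, and HIST2H2AA4 at 0 in Wnt3a replicates 1 and 3. Their sum had no such gaps: 6.45, 5.02 and 7.19 CPM in vehicle, 4.24, 4.65 and 6.46 in Wnt3a and 5.60, 9.89 and 12.2 in inhibitor libraries, with overlap between all groups. The H4 copies HIST2H4A and HIST2H4B, which are part of the core H4 supply, summed to 14.1, 11.3 and 14.5 CPM in vehicle, 11.2, 9.81 and 13.5 in Wnt3a and 15.3, 9.11 and 10.4 in inhibitor libraries. They overlapped too. HIST2H4B alone changed by -0.467 against vehicle and by -1.15 without inhibitor replicate 1, where it passed (adjusted p = 0.0389, edgeR). Inhibitor replicate 1 was the highest of its group for the H4 pair and the lowest for the H2A pair.

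H2A and H2B genes often lie head to head with a shared promoter region between them. In 13 pairs of protein-coding members the annotated starts lay on opposite strands within 500 bases, and in 4 of them both genes were tested. Some of the 13 join an H3 gene to an H2B gene that is also paired with an H2A gene. In the pair HIST1H2BJ and HIST1H2AG, 291 bases apart, HIST1H2AG fell by 2.73 on the log2 scale against Wnt3a, while HIST1H2BJ changed by 0.291 ± 0.726 (adjusted p = 0.759, edgeR) on 91.54 counts in all libraries. In the pair HIST3H2A and HIST3H2BB, 233 bases apart, HIST3H2A had 2211.69 counts over all libraries and HIST3H2BB 50.08, too few to be tested. The other pairs with both genes tested were HIST2H2BE and HIST2H2AC, 322 bases apart, HIST1H2BC and HIST1H2AC, 218 apart, and HIST1H2BG and HIST1H2AE, 282 apart. None of these genes passed the main edgeR test in any comparison over all 9 libraries. Differences within a pair were not tested.

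The promoters of the 3 genes that rose from Wnt3a to inhibitor cells and of the gene that fell most are printed to show what they do and do not share. Each is the 250 bases before the RefSeq start on GRCh38.p14, 5′ to 3′ on the gene's strand, with every match on either strand in capitals to TATAAA as the TATA box, to the CCAAT box, and to the octamer ATTTGCAT.
HIST3H2A, chr1:228457874-228458123, minus strand: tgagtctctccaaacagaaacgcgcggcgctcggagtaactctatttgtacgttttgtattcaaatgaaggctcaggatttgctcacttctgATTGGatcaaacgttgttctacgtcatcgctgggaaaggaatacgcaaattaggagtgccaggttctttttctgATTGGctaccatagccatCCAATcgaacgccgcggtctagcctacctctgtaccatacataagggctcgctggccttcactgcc
HIST1H2BD, chr6:26157871-26158120, plus strand: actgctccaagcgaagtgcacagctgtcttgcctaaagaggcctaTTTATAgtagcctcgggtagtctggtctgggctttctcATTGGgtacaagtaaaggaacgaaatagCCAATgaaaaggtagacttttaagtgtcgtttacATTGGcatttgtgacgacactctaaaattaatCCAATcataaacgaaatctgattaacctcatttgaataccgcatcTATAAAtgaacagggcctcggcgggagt
HIST1H1C, chr6:26056471-26056720, minus strand: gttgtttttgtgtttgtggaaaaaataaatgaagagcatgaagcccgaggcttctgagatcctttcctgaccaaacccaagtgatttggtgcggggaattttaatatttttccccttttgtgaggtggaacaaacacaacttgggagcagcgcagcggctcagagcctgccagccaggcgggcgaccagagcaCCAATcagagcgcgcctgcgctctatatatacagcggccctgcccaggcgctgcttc
HIST1H2AG, chr6:27132793-27133042, plus strand: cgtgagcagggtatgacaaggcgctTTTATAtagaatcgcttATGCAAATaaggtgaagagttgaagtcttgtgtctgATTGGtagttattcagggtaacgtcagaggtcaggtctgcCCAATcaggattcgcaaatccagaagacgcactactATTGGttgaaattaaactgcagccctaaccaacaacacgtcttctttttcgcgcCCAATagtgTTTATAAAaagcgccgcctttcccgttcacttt
All 4 windows hold CCAAT, HIST1H2BD and HIST1H2AG hold TATAAA, and HIST1H2AG alone holds the octamer, which is the site of OCT1. That octamer begins at -208 from the HIST1H2AG start. It is also the octamer at -47 of the facing HIST1H2BJ, whose window overlaps. HIST1H2BJ did not pass the test against Wnt3a (log2 fold change 0.291, adjusted p = 0.759, edgeR). Over the whole RefSeq window of 300 bases, which adds 50 bases after the start, the octamer was in 24 of the 64 matched protein-coding members (37.5%) and in 1.8% of all 27305 promoters. By class it was in 13 of 17 H2B, 11 of 16 H2A, 0 of 12 H3, 0 of 6 H1 and 0 of 13 H4 promoters. TATAAA was in 67.2% of the members' windows and 12% of all promoters. CCAAT was in all H1, H2A, H2B and H3 windows but in 3 of 13 H4 windows (23.1%), beside 35.7% of all promoters. Facing H2A and H2B genes share part of their windows, so these are not independent. Matches to TATAAA on opposite strands can overlap, as in HIST1H2AG, and none of the motifs contains another. A match is a description and shows no binding.

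Factors that make and process histone mRNA were examined as a list of 35 genes, of which 33 were in the tables, all tested. With Wnt3a alone 0 of 33 passed. From Wnt3a to inhibitor cells 11 rose and 10 fell, and against vehicle 10 and 10, with medians of -0.036 and 0.057 on the log2 scale, close to those of all genes. Among all genes tested, 24.5% rose and 25.9% fell against Wnt3a, and 25% and 24.8% against vehicle. SLBP, which binds the stem-loop, was at 140, 130 and 130 CPM in vehicle, 128, 119 and 128 in Wnt3a and 79.8, 102 and 95.3 in inhibitor libraries. All inhibitor libraries were the lowest, and SLBP fell by 0.435 ± 0.102 (SE) on the log2 scale against Wnt3a (adjusted p = 0.00551, edgeR). NPAT, the coactivator of histone genes at the histone locus body, fell by 0.63 ± 0.139 (adjusted p = 0.00409), and CASP8AP2 (FLASH), which acts in stem-loop processing, by 1.06 ± 0.097 (adjusted p = 2.43e-05). The largest falls were of cyclin E, the partner of CDK2 that activates NPAT. CCNE2 was at 34.4, 32.7 and 32.6 CPM in vehicle, 43.2, 32.0 and 36.5 in Wnt3a and 1.48, 3.86 and 3.51 in inhibitor libraries (log2 fold change -3.64 ± 0.281 against Wnt3a, adjusted p = 9.45e-06), and CCNE1 fell by 3.19 ± 0.287 (adjusted p = 2.14e-05, edgeR).

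HINFP and POU2F1, activators of particular histone classes, rose. HINFP, an activator of H4 genes, was at 16.1, 20.2 and 15.2 CPM in vehicle, 18.1, 17.7 and 15.6 in Wnt3a and 54.5, 51.0 and 45.9 in inhibitor libraries, a log2 fold change of 1.56 ± 0.133 against Wnt3a (adjusted p = 1.62e-05, edgeR). POU2F1 (OCT1), which binds the octamer of H2B promoters, rose by 1.53 ± 0.167 (adjusted p = 6.13e-05). SRRT (ARS2), which links cap binding to 3′ end formation, fell by 0.943 ± 0.132 (adjusted p = 0.000261). Each of the factors named here passed in the same direction against vehicle.

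**Figure D5:**
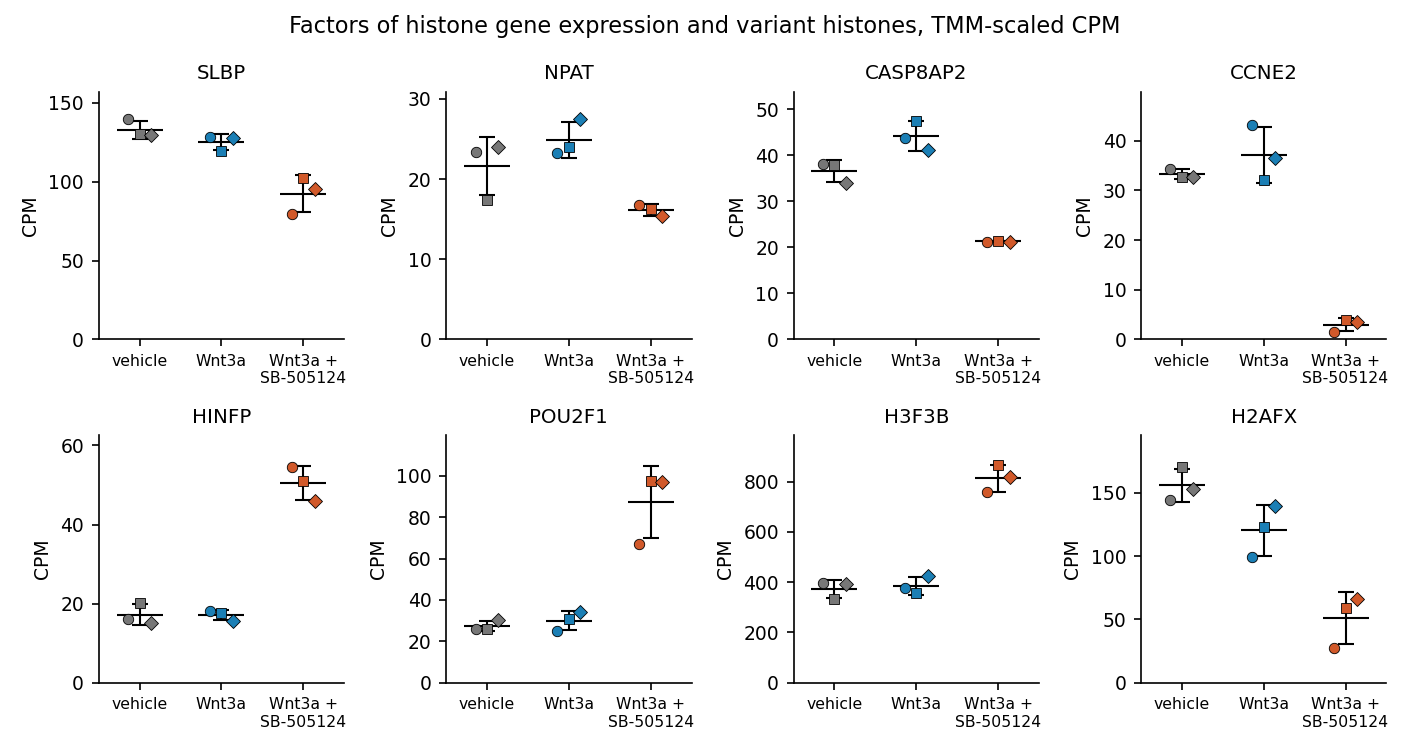
TMM-scaled CPM of 6 factors of histone gene expression and 2 variant histone genes in the 9 libraries; circles, squares and diamonds are replicates 1, 2 and 3, and the bars are the mean ± SD of 3 libraries. The 3 inhibitor libraries lie below the other 6 for SLBP, NPAT, CASP8AP2, CCNE2 and H2AFX and above them for HINFP, POU2F1 and H3F3B.

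Replication genes give the setting. Of 41 genes of DNA replication and S phase, 0 passed with Wnt3a, and 4 rose and 22 fell in the inhibitor group against Wnt3a and against vehicle. Their summed level was 4257 to 4981 CPM in the vehicle and Wnt3a libraries and 2596, 4178 and 3846 in inhibitor replicates 1 to 3. Inhibitor replicate 1 was thus the lowest of all. Among 21 histone chaperones, which escort newly made histones, 5 rose and 10 fell in each comparison with the inhibitor group. Beside these lists, 24.5% of all genes tested rose and 25.9% fell against Wnt3a, and 25% and 24.8% against vehicle. RNA from genes whose transcripts have no poly(A) tail, apart from histones, summed to 69.8 to 198 CPM with overlap between all groups, and of its 8 tested rows 0 passed against Wnt3a and 1 rose against vehicle. Whether replication or the selection of RNA has a part in the histone values was not tested.

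The variant histones, which are encoded by genes outside the clusters, were far more abundant in these libraries of polyadenylated RNA. Summed over 12 genes they were at 2367 to 2880 CPM per library, against 64.1 to 90.1 for the clustered genes. The main, tailless mRNA of the clustered genes is not measured here, so these sums do not compare all mRNA of the variant and clustered genes. With Wnt3a 0 of the 11 tested passed, and in each inhibitor comparison 2 rose and 4 fell. The shares of all genes tested were 24.5% and 25.9% against Wnt3a, and 25% and 24.8% against vehicle. H3F3B, a gene of the replacement histone H3.3, was at 396, 333 and 391 CPM in vehicle, 375, 355 and 424 in Wnt3a and 757, 865 and 819 in inhibitor libraries, and rose by 1.08 ± 0.106 (SE) on the log2 scale against Wnt3a (adjusted p = 3.32e-05, edgeR). Its partner H3F3A, which encodes the same protein, changed by -0.063 (adjusted p = 0.675). H2AFX, the H2A variant that is phosphorylated at DNA breaks and whose transcript can also end at a stem-loop, was at 145, 171 and 153 CPM in vehicle, 99.3, 123 and 140 in Wnt3a and 27.5, 58.7 and 66.4 in inhibitor libraries, and fell by 1.24 ± 0.269 (adjusted p = 0.00345). CENPA, the H3 variant of centromeres, rose by 0.459 (adjusted p = 0.00665), and H2AFY, H2AFV and H2AFY2 fell by 0.431, 0.329 and 0.248 (adjusted p = 0.00338, 0.00911 and 0.024, edgeR). Of 17 alternatives, H2AFY2 missed the threshold in 5, CENPA in 2 and H2AFV in 1.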

How the data were processed

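Polyadenylated RNA of TC32 cells was sequenced from stranded libraries, per the labels' protocols. Per the submitters' processing notes, the tools were RSEM 1.2.31, STAR 2.5.2a, Trimmomatic 0.36 and CASAVA 1.8.2, and the build was hg38. The annotation release and strand setting were not given in the sources used here. Each deposited table holds, per the file headers, an expected count, TPM, FPKM and a mean transcript length per gene. RSEM divides reads that match several genes among them, which leaves near-identical histone copies uncertain. FPKM was not used. Transcript models and coordinates are from GENCODE 29 (hg38). Promoter sequences are from RefSeq (GRCh38.p14), matched to 64 of 72 protein-coding members by Entrez gene number.

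Expected counts were rounded. Genes were filtered with filterByExpr by group (17880 kept), scaled with TMM and fitted with edgeR 4.0.16 (quasi-likelihood, R 4.3.3) over all 9 libraries, with Benjamini-Hochberg adjustment over all genes tested and a threshold of 0.05. The SE of a log2 fold change is its size over the square root of F. Pooled sums include members that did not pass the filter and have no test. The edgeR test was also run on simulated data with 200 changed genes, as many rising as falling. That is far fewer than were called with the inhibitor, so the simulation does not bear on the choice of scaling there. Reads carry no molecular identifiers, so members with few counts are limited by counting error, and total counts ran from 28844348 to 42976799. The spliced share of HIST1H2BD comes from the deposited mean length and its 2 transcript lengths.

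The named genes are the 14 most abundant members, up to 6 called members in each direction per comparison with the largest change, up to 6 called histone mRNA factors and up to 6 called variant histones per comparison with the smallest adjusted p, and SLBP, NPAT, AXIN2, SMAD7 and PMEPA1. H3F3A, and the members HIST1H2BJ, HIST3H2BB, HIST2H2AC, HIST1H2BG, HIST1H2AE and HIST1H4H, lie outside it and were chosen after seeing their values. The members and lists were chosen with earlier results of these data known. Alternatives were RLE factors, library totals, no further filter, DESeq2 1.42.0, limma 3.58.1 (voom, and trend on log2(TPM + 1)), the replicate number as a block, only the 2 groups compared, and leaving out each library. The sums over protein-coding members only and the shares without inhibitor replicate 1 were added after seeing the data.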

Additional observations from a re-analysis of the deposited data

How the results depend on the processing

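The 8 members called for inhibitor against Wnt3a became 13 with limma-trend on log2(TPM + 1), 5 with only the 2 groups compared, and 5 to 8 with 1 library left out, the lowest without vehicle replicate 3 and without Wnt3a replicate 2. The 7 for inhibitor against vehicle became 5 to 11, the highest without inhibitor replicate 1, and the 0 for Wnt3a against vehicle 0 to 1. With the replicate block 0, 6 and 7 members were called for Wnt3a against vehicle, inhibitor against Wnt3a and inhibitor against vehicle. Deviations of libraries with the same number correlated at -0.182 to 0.416, and not all were over 0.1, so the number was not taken to pair libraries. Counts of called factors and variant histones stayed within 1.5 times under all 17 alternatives. The pooled log2 ratio for inhibitor against vehicle, -0.032, was -0.257 with library totals and -0.183 from TPM, and that for inhibitor against Wnt3a, 0.196, was -0.049 and -0.034. Signs turned for some changes that were not called. HIST1H2BK against Wnt3a was 0.181 and became -0.066 with library totals and -0.169 with limma-trend, HIST2H4B became -0.008 and -0.014, and SMAD7 for inhibitor against vehicle -0.073 and -0.197. HIST2H2BD and HIST2H2BE for Wnt3a against vehicle became 0.003 and 0.014 with limma-trend, and HIST2H4A for inhibitor against vehicle 0.031 with limma-voom and 0.04 with the replicate block. With 1 library left out, inhibitor against Wnt3a ranged from -0.446 to 0.062 for HIST1H2AC, -0.326 to 0.298 for HIST2H4A and -0.436 to 0.527 for HIST2H4B, and inhibitor against vehicle from -0.204 to 0.121 for HIST1H2BK and -0.21 to 0.273 for HIST2H4A. For Wnt3a against vehicle the ranges were -0.225 to 1.223 for HIST2H2AA3, -0.156 to 0.026 for HIST2H2BD, -0.274 to 0.098 for HIST2H2BE, -0.31 to 0.392 for HIST2H4A and -0.041 to 0.141 for PMEPA1. The cause of these shifts was not tested. Members with few counts are limited by depth.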
